A study of Mus musculus with 60 samples.

Results

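The 77 genes described here encode subunits of the 5 complexes of the mitochondrial respiratory chain and its ATP synthase. They were chosen by gene symbol (Ndufa, Ndufb, Ndufc, Ndufs, Ndufv, Sdha to Sdhd, Uqcr, Cox4 to Cox8 and Atp5, with pseudogenes and assembly factors left out) from a table of 21115 features, 20405 of them named. Complex I had 35 members, complex II 4, complex III 6, complex IV 19 (with Ndufa4 and Ndufa4l2) and complex V 13. All members are encoded in the nucleus, and 0 of 26 names of mitochondrially encoded subunits were found on the table.

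The RNA came from livers of C57BL/6J mice that, per the labels, were male, 12 to 15 weeks old and transgenic for the aryl hydrocarbon receptor (AHR), a ligand-activated transcription factor that binds dioxins. The transgenes came in 3 variants called rWT, DEL and INS, and the labels do not say how they differ. Each mouse received 2,3,7,8-tetrachlorodibenzo-p-dioxin (TCDD) in corn oil once by gavage, or corn oil alone, and its liver was taken after 96 hours and hybridised to 1 expression array. Corn oil was given to 5 rWT, 5 DEL and 5 INS mice. TCDD at 125, 250, 500 and 1000 µg/kg was given to 3, 3, 4 and 2 rWT mice, to 4, 4, 4 and 4 DEL mice, and to 4, 4, 4 and 5 INS mice, which makes 12, 16 and 17 treated mice in the respective lines. Values are deposited log2 levels, and each effect below is the mean of the 4 TCDD groups minus the corn oil group of the same line, ± the standard error (SE) of a linear model fitted with limma. A gene is said to have risen or fallen where its Benjamini-Hochberg adjusted p over all 21115 features was under 0.05.

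Complex I (NADH dehydrogenase) and complex II (succinate dehydrogenase) pass electrons to coenzyme Q, complex III moves them on to cytochrome c, and complex IV reduces oxygen with them. Complexes I, III and IV pump protons, and the ATP synthase, complex V, uses the gradient to make ATP. Complex II is also an enzyme of the tricarboxylic acid cycle and holds no mitochondrially encoded subunit. Hepatocytes are rich in mitochondria and oxidise fatty acids, amino acids and lactate through this chain.

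Promoter sequences for 62 of the 77 members (67 promoters) were found in a RefSeq table of the GRCm38.p6 build, each spanning 250 bases before and 50 after a gene's start. The core of the dioxin response element to which AHR binds, GCGTG on either strand, was in 53.7% of the member promoters, against 40.6% of the promoters of all features of the array table and 32.4% of all 32851 promoters. The ETS family core CCGGAA, recognised by the mitochondrial gene regulator GABPA, was in 34.3%, against 19.4% and 14.9%. The palindromic element of nuclear respiratory factor NRF1, searched without mismatch, was in 7.46%, against 1.42% and 0.971%. Shares such as these depend on base composition, and a match of letters is not a bound site. All 3 complex II promoters of the table held GCGTG within their 300 bases. The 100 bases just before the start of these genes are printed 5′ to 3′ because complex II was the complex with the largest share of members called lower. They lie at chr13:74350241-74350340 on the minus strand for Sdha, at chr4:140961171-140961270 on the plus strand for Sdhb and at chr9:50603850-50603949 on the minus strand for Sdhd. Capitals mark GCGTG or its complement CACGC, and CCGGAA or its complement TTCCGG.
Sdha: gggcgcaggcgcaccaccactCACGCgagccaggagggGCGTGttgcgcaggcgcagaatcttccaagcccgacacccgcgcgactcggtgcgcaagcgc
Sdhb: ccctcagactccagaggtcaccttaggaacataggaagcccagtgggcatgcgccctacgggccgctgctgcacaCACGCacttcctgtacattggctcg
Sdhd: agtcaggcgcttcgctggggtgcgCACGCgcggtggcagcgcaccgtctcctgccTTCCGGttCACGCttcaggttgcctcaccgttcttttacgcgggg

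A check of sex-linked RNA set 4 arrays of the rWT line apart from their label. All mice are labelled male, but on 56 arrays Xist, which marks an inactive X chromosome, lay between 2.41 and 3.44, and on the remaining 4 between 10.66 and 11.42. The 4 are TCDD 500 replicate 4 and corn oil replicates 3 to 5. These 4 arrays include 3 of the 5 rWT corn oil arrays, so the rWT counts of calls and medians are also given without them. Corn oil replicate 5 of rWT was also high in skeletal muscle transcripts: each of 9 muscle markers was highest on it, with Acta1 (skeletal actin) at 13.01 against 4.77 to 7.33 and Ckm (muscle creatine kinase) at 12.07 against 3.76 to 5.15 on the other 59 arrays. Cyp1a1, the classic AHR target, rose in all 3 lines, by 6.19, 4.80 and 4.85 in rWT, DEL and INS. The mean of an array depended on the line (DEL 6.23 to 6.30, rWT 6.01 to 6.07, INS 5.58 to 5.74), so levels are compared with controls of the same line and not between lines.

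Some respiratory chain subunits fell in rWT and DEL livers, 1 rose in each, and none passed the test in INS. In rWT, 15 of 77 members fell (19.5%) and 1 rose (1.3%), beside 20.4% of all features lower and 20.3% higher. In DEL, 12 fell (15.6%) and 1 rose (1.3%), beside 17.6% lower and 16.7% higher. The share of members that fell was thus near that of the whole table, and the share that rose was below it. In INS, 0 members passed the limma test and 0 had an unadjusted p under 0.05, beside 0.431% of all features called higher, 0.137% called lower and 7.5% at that unadjusted p.

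The size of most shifts was small. The median effect of the members was -0.09 in rWT, -0.13 in DEL and -0.02 in INS, against medians of -0.07, -0.05 and -0.01 over all features. The rWT medians were -0.15 for the members and -0.10 for all features without the 4 rWT arrays. Effects were negative for 56, 61 and 46 of the 77 members, respectively. Centring each array on its median moved the median of all features to -0.29 in rWT, -0.31 in DEL and -0.03 in INS, so directions depend on the scaling. Centred, 38 members were called lower and 0 higher in rWT (51.9% and 13.2% of all features), 49 and 0 in DEL (55.2% and 10.4%), and 0 and 0 in INS. Relative to the median of all features on the deposited scale, the members' medians were -0.02, -0.07 and -0.01.

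The falls were unevenly spread over the complexes, as the plot of effects by complex shows. Of complex II, 3 of 4 members fell in rWT and 3 of 4 in DEL. Complex I had 8 of 35 lower in each of these lines, and complex III had 1 of 6 in each. Complex IV had 3 of 19 lower and 1 higher in rWT, and 0 lower and 1 higher in DEL, and complex V had 0 of 13 called in any line. Of all features 20.4% were lower and 20.3% higher in rWT, and 17.6% and 16.7% in DEL. Complexes I and III lay near these lower shares, and complex II holds only 4 genes. Without the 4 rWT arrays Sdha and Sdhc were the only complex II members called lower in rWT. Medians by complex, from I to V, were -0.11, -0.46, -0.20, -0.01 and -0.07 in rWT and -0.20, -0.36, -0.15, -0.01 and -0.05 in DEL. The rWT medians without the 4 arrays were -0.23, -0.40, -0.17, -0.09 and -0.015, larger in size for complexes I and IV and smaller for complexes II, III and V. Both lines had 10 lower members in common, 66.7% of the 15 in rWT and 83.3% of the 12 in DEL, which were Sdha, Sdhb, Sdhc, Ndufa2, Ndufa5, Ndufa9, Ndufa10, Ndufb10, Ndufs3 and Ndufv1. Without the 4 rWT arrays set apart, 8 members were called lower in rWT and Cox6a1 alone was higher, beside 19.1% of all features lower and 16.9% higher. Of the 8, 7 were among the 15 (Sdha, Sdhc, Ndufa2, Ndufa5, Ndufa9, Ndufa10 and Cox8b), and Cox8c was added. Cox8b and Cox8c read low, and a filter at the median level of all features, 5.74, left both out. All lines share 1 estimate of the spread per gene, so the DEL calls moved too: 13 members were lower, with Uqcrfs1 and Cox7a1 added and Uqcrq lost, and Cox6a1 stayed higher (18.5% and 17.5% of all features).

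**Figure D1:**
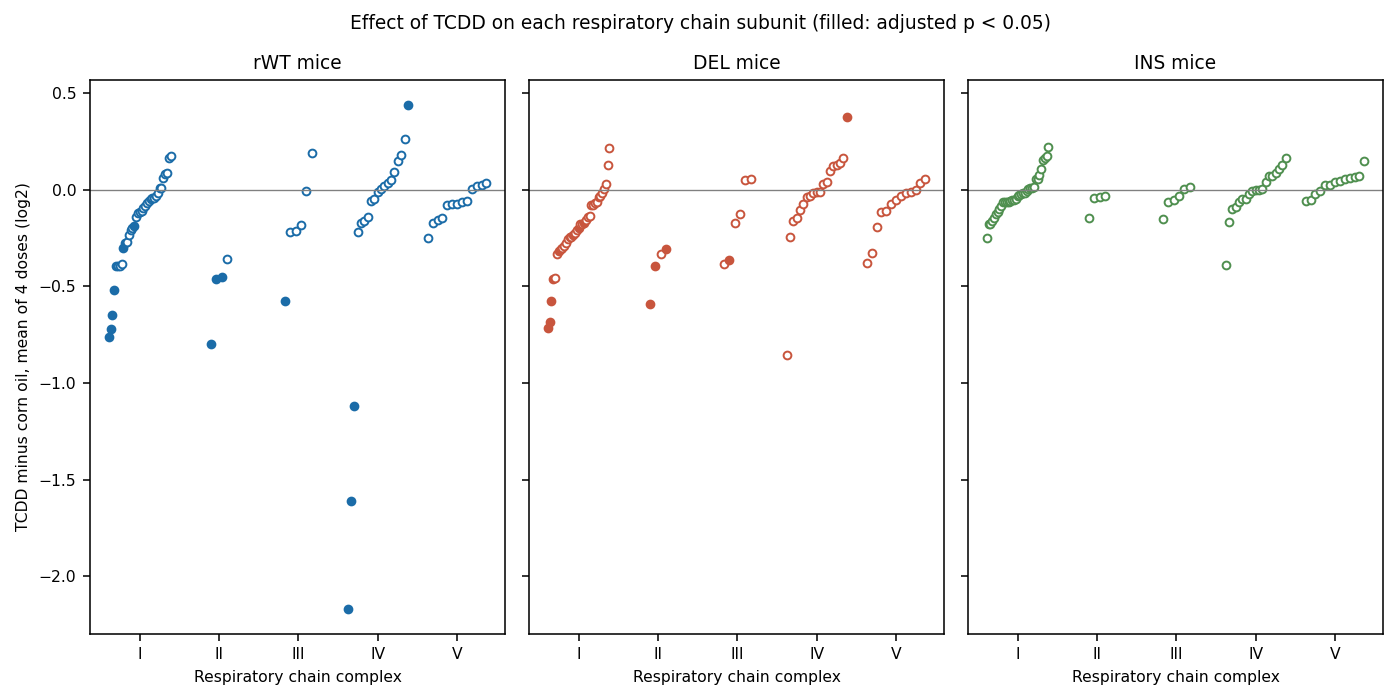
Effect of TCDD (mean of 4 doses minus corn oil, log2, y axis) on each of the 77 subunits by complex (x axis) in rWT, DEL and INS mice. Each point is 1 gene, filled where the adjusted p is under 0.05. Complex II lies below 0 in rWT and DEL, the lowest rWT points of complex IV are Cox8b, Cox7a1 and Cox6a2, and no INS point is filled; after median centring of the arrays the 2 filled points above 0 (Cox6b2 in rWT, Cox6a1 in DEL) are no longer called.

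Hepatocyte markers were high on every array, their mean lying between 11.94 and 12.85, and transcripts of other liver cells changed in the treated samples. Of 10 macrophage markers 7 rose and 1 (Clec4f, -0.47) fell in rWT and 10 rose in DEL, where 20.3% and 16.7% of all features rose, their mean running from 7.49 to 8.37 in corn oil and 8.29 to 10.11 after TCDD in rWT and from 7.75 to 7.99 in corn oil and 8.73 to 10.48 after TCDD in DEL. All 7 neutrophil markers rose in both lines, with means of 4.42 to 5.12 in corn oil and 5.34 to 10.03 after TCDD in rWT and 4.80 to 5.35 in corn oil and 6.29 to 9.08 after TCDD in DEL. Of 8 stellate cell markers 6 rose in rWT and 7 in DEL, with means of 6.69 to 7.81 in corn oil and 7.14 to 9.48 after TCDD in rWT and 6.93 to 7.28 in corn oil and 7.59 to 9.56 after TCDD in DEL. Hepatocyte markers fell for 3 of 8 genes in rWT and 6 of 8 in DEL, and their mean was 12.57 to 12.75 in corn oil and 11.94 to 12.64 after TCDD in rWT and 12.77 to 12.85 in corn oil and 12.18 to 12.66 after TCDD in DEL. Without the 4 rWT arrays 8 macrophage, 7 neutrophil and 7 stellate cell markers were higher and 5 hepatocyte markers lower in rWT, and Clec4f was at -0.03. Of 6 endothelial markers 2 rose and 1 fell in rWT and 3 rose and 1 fell in DEL. All 3 erythroid markers fell in rWT (median -2.28; 2 of 3 without the 4 arrays) and 1 of 3 in DEL. Of 6 lymphocyte markers 2 fell and 1 rose in rWT (0 called without the 4 arrays) and 0 were called in DEL. Also in rWT, 8 of 9 skeletal muscle, 3 of 5 adipocyte and 2 of 3 pancreas markers fell, and without the 4 arrays 2, 2 and 1 were lower and 1 muscle marker was higher. In DEL 1 adipocyte marker fell. Of 4 cholangiocyte and 4 cardiac muscle markers 0 were called in either line with all arrays. In INS 0 markers of these 12 lists were called. Fewer hepatocytes and less subunit RNA per hepatocyte cannot be told apart in whole liver, and the part of these cell types in the results below was not tested.

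The mean of the complex II subunits was below all controls in nearly every treated rWT and DEL mouse. Of the single subunits, Sdha and Sdhc came close to this, while Sdhb and Sdhd overlapped more, as the plot shows array by array. Sdhd lay below all controls on 5 of 12 treated rWT and 12 of 16 treated DEL arrays. Sdha (Entrez gene 66945, chromosome 13) encodes the flavoprotein that oxidises succinate. On rWT corn oil arrays Sdha read 11.44, 11.48, 11.76, 11.74 and 12.07, and the lowest, median and highest of the 12 TCDD arrays were 10.47, 10.94 and 11.55. Of the 12 treated arrays 11 lay below the lowest control. The highest treated value was that of TCDD 500 replicate 4, 1 of the 4 arrays set apart. Sdha fell in rWT by 0.80 ± 0.17 on the log2 scale (adjusted p = 0.000145), so that its level fell by 42.5%, and without those 4 arrays the difference was -0.62 (adjusted p = 0.0288).

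In DEL, Sdha read 12.13, 11.97, 11.73, 11.92 and 12.06 on the corn oil arrays. The 16 TCDD arrays ran from 10.68 to 11.62 (median 11.39), with no overlap between the groups. Its difference was -0.59 ± 0.16 (adjusted p = 0.00322), and its level fell by 33.7%. Sdha and Sdhc were the 2 members for which every treated DEL array lay below every control, beside 4.98% of all features, and 0 members did so in rWT (2.76% of all features) or INS (0.0284%). INS controls read 11.83, 11.57, 10.87, 11.45 and 11.64 and INS treated arrays 10.47 to 12.08 (median 11.36), and the groups overlapped (effect -0.04 ± 0.16 (adjusted p = 1), 95% interval -0.36 to 0.29).

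Sdhb (Entrez gene 67680, chromosome 4) encodes the iron-sulfur subunit that carries the electrons from the flavin towards coenzyme Q. It read 10.46, 10.86, 11.05, 11.24 and 11.25 on rWT controls and 10.16 to 10.89 (median 10.52) on treated arrays. In DEL the controls read 10.53, 10.87, 10.98, 10.79 and 10.68 and the treated arrays 10.11 to 10.79 (median 10.46). The groups overlapped in both lines, with 5 of 12 rWT and 9 of 16 DEL treated arrays below all controls. Sdhb fell in rWT (-0.46 ± 0.12 (adjusted p = 0.00207)) and in DEL (-0.31 ± 0.12 (adjusted p = 0.0368)), and its INS effect was -0.04 ± 0.12 (adjusted p = 1). Neither fall was firm: without the 4 rWT arrays the rWT difference was -0.17 (adjusted p = 0.434), and 7 of the DEL arrays each ended the DEL call when left out (largest adjusted p = 0.131).

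Sdhc (Entrez gene 66052, chromosome 1) and Sdhd (Entrez gene 66925, chromosome 9) encode the membrane anchors that hold the complex in the inner membrane and form its coenzyme Q site. Sdhc read 11.52, 11.03, 10.96, 11.05 and 11.11 on rWT controls and 10.41 to 11.11 (median 10.69) on treated arrays, 10 of which were below all controls. In DEL it read 11.25, 11.27, 11.37, 11.28 and 11.26 and then 10.42 to 11.12 (median 10.95), again without overlap. Sdhc fell in rWT (-0.45 ± 0.10 (adjusted p = 0.000345)) and DEL (-0.40 ± 0.10 (adjusted p = 0.0011)). Without the 4 rWT arrays its difference was -0.62 (adjusted p = 0.000584), but the only rWT controls left then were those at 11.52 and 11.03, which lie far apart. In INS 7 of the 17 treated arrays lay below all controls, with an effect of -0.14 ± 0.10 (adjusted p = 0.869). Sdhd did not pass the test in any line, with -0.36 ± 0.18 (adjusted p = 0.101) in rWT (-0.04 without the 4 arrays), -0.33 ± 0.17 (adjusted p = 0.124) in DEL and -0.03 ± 0.17 (adjusted p = 1) in INS. Its spread was wide: DEL controls covered 11.27 to 11.63 and DEL treated arrays 10.57 to 11.78.

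The mean of the 4 complex II subunits on each array separated the groups in DEL and nearly so in rWT. Corn oil arrays read 11.29, 11.42, 11.43, 11.35 and 11.33 in DEL, and all 16 treated arrays were below them, between 10.78 and 11.10. In rWT the controls read 11.16, 11.22, 11.41, 11.49 and 11.56, and 11 of 12 treated arrays, in a range of 10.62 to 11.25, lay below them, the exception being TCDD 500 replicate 4. INS controls read 11.07, 11.14, 11.13, 11.24 and 11.13, and 6 of the 17 treated arrays (10.65 to 11.31) were below the lowest.

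**Figure D2:**
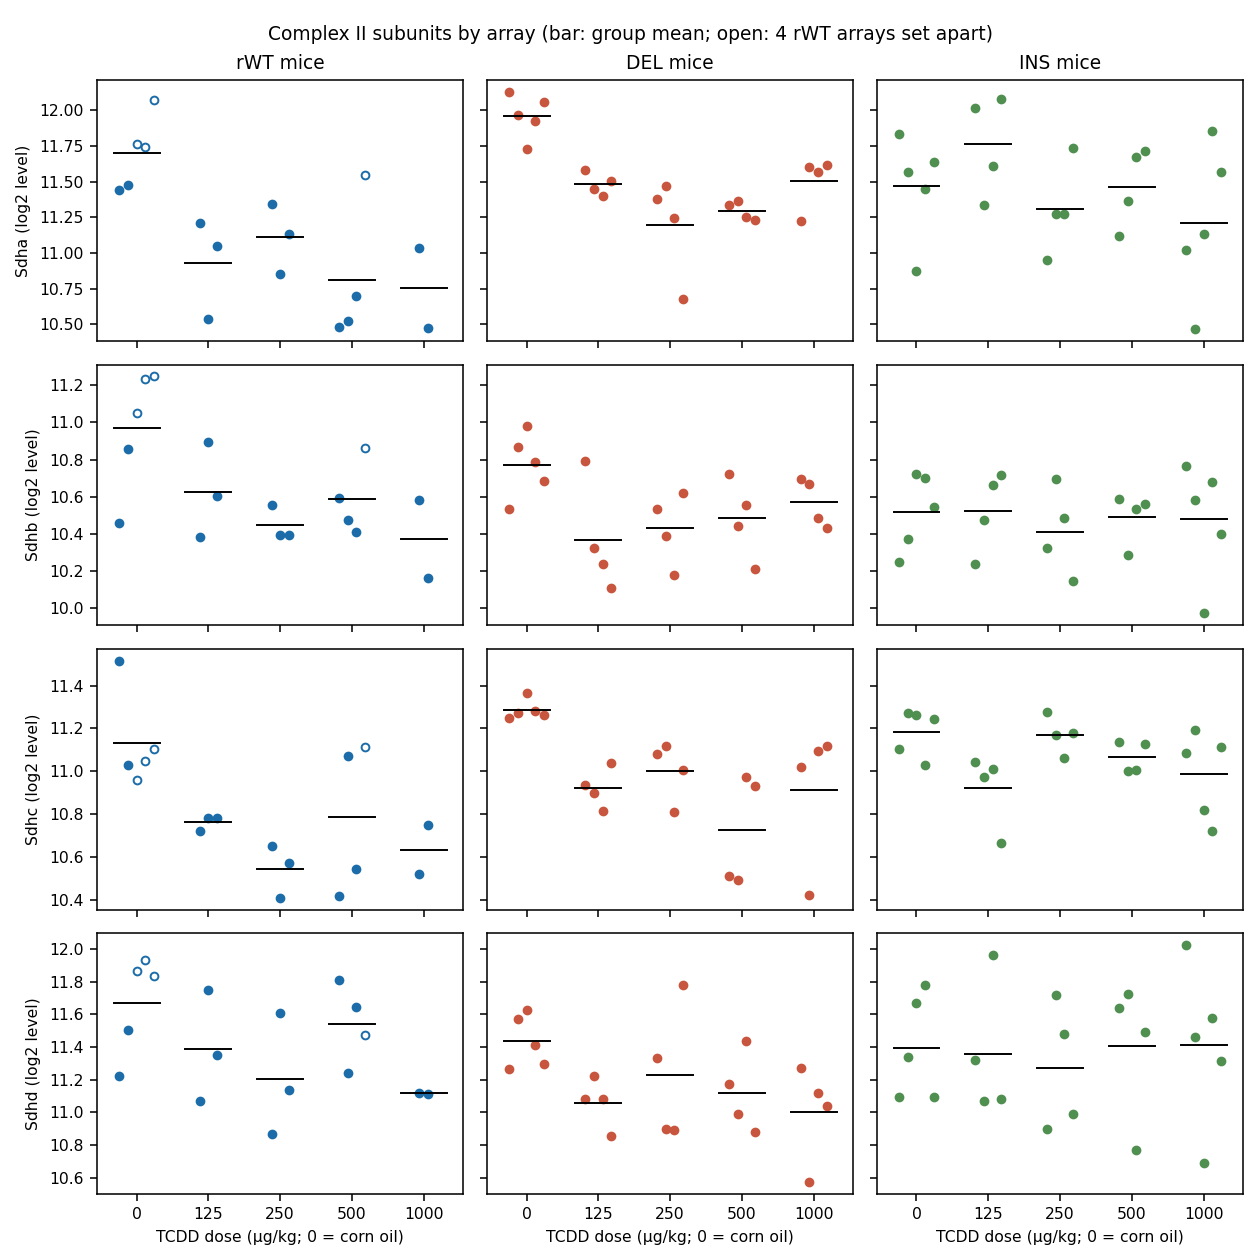
Log2 level (y axis) of the complex II subunits Sdha, Sdhb, Sdhc and Sdhd on each array by TCDD dose in µg/kg (x axis, 0 is corn oil) in rWT, DEL and INS mice. Bars are group means, and open points are the 4 rWT arrays set apart by Xist. All 16 treated DEL points of Sdha and Sdhc lie below the 5 DEL controls, while INS groups overlap.

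Complex I falls involved some core subunits of the electron-carrying arm and several accessory subunits. Of the 6 core subunits of that arm among the members, Ndufv1, Ndufs1 and Ndufs3 fell in rWT, where 0 were called without the 4 arrays, and Ndufv1 and Ndufs3 fell in DEL. The averaged effects of Ndufv2, Ndufs7 and Ndufs8 were not called in any line, with -0.27, -0.11 and -0.019 in rWT and -0.25, -0.064 and -0.019 in DEL. Ndufv1 (Entrez gene 17995, chromosome 19) binds NADH and the flavin that takes its electrons, and Ndufs1 (Entrez gene 227197, chromosome 1) is the largest core iron-sulfur subunit. Ndufv1 read 11.07, 10.91, 11.19, 11.25 and 11.33 on rWT controls and 10.57 to 11.04 (median 10.91) after TCDD, and 11.13, 11.08, 11.33, 11.31 and 11.32 on DEL controls and 10.81 to 11.28 (median 11.05) after TCDD. In rWT 6 of 12 treated arrays and in DEL 9 of 16 were below all controls. The falls were small, -0.27 ± 0.08 (adjusted p = 0.00537) in rWT and -0.20 ± 0.08 (adjusted p = 0.0407) in DEL. The rWT call was lost without the 4 arrays (-0.13, adjusted p = 0.393), and the DEL call was lost on leaving out any 1 of 10 DEL arrays (largest adjusted p = 0.118).

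Ndufs1 in rWT rested on the arrays that went against their label. Its rWT controls read 8.61, 8.52, 9.77, 9.95 and 9.94, high on replicates 3, 4 and 5, and its treated arrays 7.66 to 9.29 (median 8.72). With all arrays Ndufs1 fell (-0.76 ± 0.20 (adjusted p = 0.00186)), and without the 4 arrays the difference was -0.04 (adjusted p = 0.904). In DEL it read 9.34, 9.49, 9.47, 9.59 and 9.32 on controls and 8.81 to 9.39 (median 9.14) after TCDD, with 13 of 16 treated arrays below all controls. That difference did not pass the test (-0.30 ± 0.19 (adjusted p = 0.231)), and the INS effect was 0.17 ± 0.19 (adjusted p = 1).

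Ndufs3 (Entrez gene 68349, chromosome 2), a core subunit of the same arm, read 10.38, 10.63, 10.67, 10.77 and 10.78 on rWT controls and 9.92 to 10.57 (median 10.36) after TCDD. Of these treated arrays 7 of 12 lay below the controls. Ndufs3 fell in rWT (-0.40 ± 0.09 (adjusted p = 0.000469)) and DEL (-0.23 ± 0.09 (adjusted p = 0.0343)), while without the 4 arrays the rWT difference was -0.27 (adjusted p = 0.104). Leaving out any 1 of 6 DEL arrays ended the DEL call (largest adjusted p = 0.117).

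Among the accessory subunits, Ndufa9 (Entrez gene 66108, chromosome 6), which sits where the peripheral arm meets the membrane and binds a pyridine nucleotide, had the smallest adjusted p of all members in both lines. It read 10.72, 10.51, 10.67, 10.88 and 10.91 on rWT controls, against 9.58, 10.16 and 10.53 as lowest, median and highest of the treated arrays. In DEL the controls read 10.70, 10.61, 10.92, 10.90 and 10.85 and the treated arrays 9.91, 10.10 and 10.61. In rWT 11 of 12 and in DEL 15 of 16 treated arrays lay below all their controls. Ndufa9 fell by similar amounts, -0.65 ± 0.12 (adjusted p = 1.64e-05) in rWT and -0.58 ± 0.11 (adjusted p = 5.69e-05) in DEL, and stayed lower without the 4 arrays (-0.56, adjusted p = 0.0054). INS controls covered 10.29 to 10.72 and treated arrays 9.94 to 10.69, with an effect of -0.18 ± 0.11 (adjusted p = 0.851).

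Ndufa5 (Entrez gene 68202, chromosome 6), an accessory subunit of the peripheral arm, read 7.20, 7.76, 7.10, 7.65 and 7.80 on rWT controls and 6.26 to 7.73 (median 6.80) after TCDD. DEL controls read 7.44, 7.80, 7.68, 7.36 and 7.34 and treated arrays 6.28 to 7.41 (median 6.81). Below all controls were 10 of 12 and 15 of 16 treated arrays. Ndufa5 fell in rWT (-0.72 ± 0.18 (adjusted p = 0.00131); without the 4 arrays -0.75, adjusted p = 0.0188) and in DEL (-0.69 ± 0.18 (adjusted p = 0.00166)), and its INS effect was -0.06 ± 0.17 (adjusted p = 1). Ndufa5, Ndufa9, Sdha and Sdhc were the 4 of the 13 DEL calls that no single left-out array ended. In rWT, 12 of the 16 calls had that property: these 4 and Ndufb10, Ndufs1, Ndufs3, Ndufv1, Sdhb, Uqcrfs1, Cox7a1 and Cox8b. Single omissions do not show a dependence on several arrays together. With the 4 rWT arrays left out together, only Ndufa5, Ndufa9, Sdha, Sdhc and Cox8b of these 12 stayed called in rWT.

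Of the membrane arm, Ndufb10 fell in both lines and Ndufb3 in DEL. Ndufb10 (Entrez gene 68342, chromosome 17) read 7.95, 8.22, 8.25, 8.45 and 8.32 on rWT controls and 7.28 to 8.15 (median 7.74) after TCDD, and 8.21, 8.43, 8.68, 8.28 and 8.23 and 7.33 to 8.39 (median 7.90) in DEL. It fell in rWT (-0.52 ± 0.17 (adjusted p = 0.00967)) and DEL (-0.46 ± 0.16 (adjusted p = 0.0196)). The rWT call was lost without the 4 arrays (-0.38, adjusted p = 0.219) and the DEL call without DEL corn oil replicate 3 (adjusted p = 0.0875). Ndufb3 (Entrez gene 66495, chromosome 1), another membrane arm subunit, fell in DEL, where it read 7.77, 7.95, 7.95, 7.83 and 7.66 on controls and 5.86 to 8.06 (median 7.21) after TCDD (-0.72 ± 0.25 (adjusted p = 0.0203)). That call was lost without DEL corn oil replicate 2 (adjusted p = 0.0502), and the rWT difference was -0.39 ± 0.26 (adjusted p = 0.236).

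The other complex I falls were slight. Ndufa10 (Entrez gene 67273, chromosome 1) read 11.34 to 11.68 on rWT controls and 11.08 to 11.40 after TCDD, and 11.66 to 11.75 and 11.42 to 11.70 in DEL. Ndufa10 fell in both lines (-0.19 ± 0.06 (adjusted p = 0.013) and -0.17 ± 0.06 (adjusted p = 0.018)), and its call was lost without rWT corn oil replicate 5 (adjusted p = 0.1) or DEL corn oil replicate 3 (adjusted p = 0.0526). Ndufa2 (Entrez gene 17991, chromosome 18) fell in rWT (-0.30 ± 0.12 (adjusted p = 0.0484)) and DEL (-0.32 ± 0.12 (adjusted p = 0.0326)), with rWT controls at 10.47 to 11.05 and treated arrays at 9.80 to 10.85. Its calls were lost on leaving out any 1 of 8 rWT or 5 DEL arrays (largest adjusted p = 0.234 and 0.129), while without the 4 rWT arrays it was -0.56 (adjusted p = 0.0109).

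At the other end of complex I, the highest effects were those of Ndufa11 in rWT (0.17 ± 0.15 (adjusted p = 0.377)), Ndufc2 in DEL (0.22 ± 0.11 (adjusted p = 0.123)) and Ndufb1 in INS (0.22 ± 0.29 (adjusted p = 1)). None of these passed the test. The precision of the effects differed between members: the SE of a member's effect had a median of 0.15 in rWT and 0.14 in DEL and ran from 0.05 to 0.57 in rWT. Falls of over 0.3 that did not pass were measured for 4 members in rWT (Ndufa1, Ndufb3, Ndufs5 and Sdhd; -0.10, -0.71, -0.42 and -0.04 without the 4 arrays) and for 9 in DEL.

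In complex III the iron-sulfur subunit was the member with the lowest effect in rWT and DEL. Uqcrfs1 (Entrez gene 66694, chromosome 13), the Rieske protein that takes electrons from coenzyme Q, read 8.85, 9.46, 10.10, 10.01 and 9.86 on rWT controls and 8.36 to 9.53 (median 9.24) after TCDD. Replicates 3, 4 and 5 were again the highest controls. Uqcrfs1 fell in rWT (-0.58 ± 0.16 (adjusted p = 0.0039)), and without the 4 arrays the difference was -0.11 (adjusted p = 0.724). In DEL it read 8.74, 9.07, 9.29, 9.18 and 9.18 and then 8.31 to 9.13 (median 8.72), just short of the threshold (-0.38 ± 0.16 (adjusted p = 0.054)).

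Uqcrq (Entrez gene 22272, chromosome 11), a small subunit bound to cytochrome b, read 12.10, 12.31, 12.27, 12.04 and 11.92 on DEL controls and 10.98 to 12.34 (median 11.79) after TCDD. It fell in DEL (-0.36 ± 0.15 (adjusted p = 0.0484)), a call close to the threshold that many single omissions ended, and in rWT it was -0.21 ± 0.15 (adjusted p = 0.265). The core proteins Uqcrc1 and Uqcrc2, which do not carry electrons, had effects of -0.22 and -0.01 in rWT, -0.17 and 0.05 in DEL, and -0.06 and 0.00 in INS, none called. The highest complex III effects were those of the small subunit Uqcr10, at 0.19, 0.06 and 0.01 in the 3 lines, and its hinge protein Uqcrh was at -0.18, -0.13 and -0.05. None of these passed the test.

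Complex IV is built around mitochondrially encoded catalytic subunits, and its nuclear subunits exist in tissue isoforms. The widely expressed ones changed little: Cox4i1 (Entrez gene 12857, chromosome 8) read 11.06 to 11.55 on rWT controls and 11.08 to 11.98 after TCDD, with effects of 0.18 ± 0.15 (adjusted p = 0.364) in rWT and 0.13 in DEL. Cox5a was -0.17 in rWT and -0.15 in DEL. Cox6b1, Cox7a2, Cox8a and Ndufa4 had effects of 0.05, 0.00, 0.02 and 0.15 in rWT and of 0.14, -0.01, -0.10 and 0.04 in DEL. None of these 6 was called in any line.

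Cox6a1 (Entrez gene 12861, chromosome 5), the form of subunit 6A found in liver, went the other way in DEL. Its DEL controls read 10.75, 11.03, 11.07, 11.06 and 11.11, and all 16 treated arrays lay above them, at 11.14 to 11.90 (median 11.36); it was the only member to do so, beside 5.88% of all features in DEL, 3.97% in rWT and 0.18% in INS, where 0 members did. Cox6a1 rose in DEL on the deposited scale (0.38 ± 0.13 (adjusted p = 0.0183)), a call that was lost after median centring and without DEL corn oil replicate 1 (adjusted p = 0.0861). In rWT the effect was 0.26 ± 0.14 (adjusted p = 0.113), and 0.53 (adjusted p = 0.0131) without the 4 arrays. The only rWT controls left without those arrays lay far apart, at 10.38 and 11.11. INS treated arrays exceeded all controls in 13 of 17 mice, with an effect of 0.16 ± 0.13 (adjusted p = 0.94).

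The largest falls of all members, those of the muscle isoforms in rWT, rested to a large part on 1 array. Cox8b (Entrez gene 12869, chromosome 7), Cox7a1 (Entrez gene 12865, chromosome 7) and Cox6a2 (Entrez gene 12862, chromosome 7) are the heart and skeletal muscle forms of their subunits. On rWT controls Cox8b read 4.67, 4.91, 4.21, 4.37 and 12.63, Cox7a1 7.44, 8.19, 8.47, 7.34 and 11.74 and Cox6a2 4.93, 4.76, 4.56, 4.55 and 10.36, and the last value for each gene is that of replicate 5, the array rich in muscle transcripts. The plot of these isoforms against the muscle markers shows it apart from the other 59. The rWT effects were -2.17 ± 0.57 (adjusted p = 0.00175) for Cox8b, -1.61 ± 0.37 (adjusted p = 0.000407) for Cox7a1 and -1.12 ± 0.40 (adjusted p = 0.0223) for Cox6a2. Without that replicate they were -0.55 (adjusted p = 0.000396), -0.84 (adjusted p = 0.0161) and 0.01 (adjusted p = 0.938), so that of these 3 calls that of Cox6a2 was lost. Without all 4 arrays they were -0.81, -0.84 and -0.13 (adjusted p = 6.77e-05, 0.0693 and 0.499). In DEL the 3 genes were at -0.25 ± 0.54 (adjusted p = 0.761), -0.85 ± 0.35 (adjusted p = 0.0569) and 0.10 ± 0.38 (adjusted p = 0.869). The SE of these DEL values holds the spread of the rWT muscle array, and without the 4 rWT arrays the same differences were tested at -0.25 ± 0.11 (adjusted p = 0.0655), -0.85 ± 0.24 (adjusted p = 0.00477) and 0.10 ± 0.10 (adjusted p = 0.453), so that Cox7a1 then passed as lower in DEL.

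**Figure D3:**
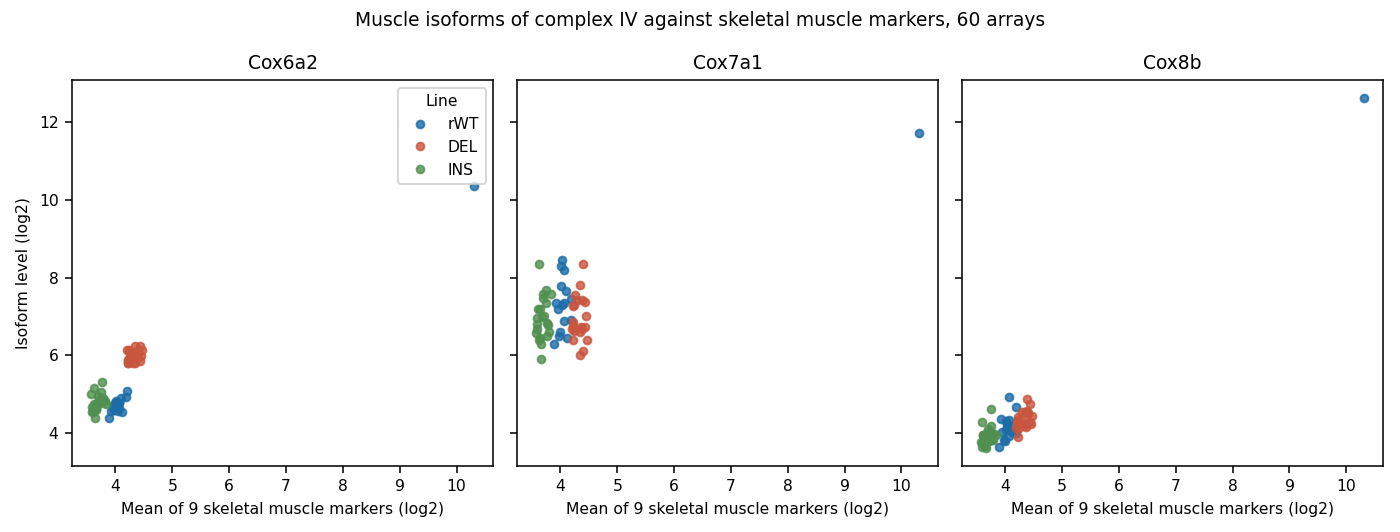
Log2 level (y axis) of the muscle isoforms Cox6a2, Cox7a1 and Cox8b against the mean log2 level of 9 skeletal muscle markers (x axis) on the 60 arrays, coloured by line. One rWT array, corn oil replicate 5, stands at 10.36, 11.74 and 12.63, above 6.24, 8.47 and 4.91, the highest of the other 59.

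Other tissue isoforms were low, as were Cox8b (3.60 to 4.91) and Cox6a2 (4.38 to 6.24) on the arrays other than rWT corn oil replicate 5. Cox6b2, the testis form of subunit 6B, read 5.09, 5.21, 4.55, 4.91 and 4.84 on rWT controls and 4.78 to 6.06 (median 5.33) after TCDD. It rose in rWT (0.44 ± 0.17 (adjusted p = 0.0308)), a call lost after median centring, without the 4 arrays (0.25, adjusted p = 0.423) and on leaving out any 1 of 5 arrays. Cox4i2, Cox7b2, Cox8c and Ndufa4l2 read between 2.06 and 6.17 on all 60 arrays and were not called in any line with all arrays.

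Complex V was nearly flat. Atp5b (Entrez gene 11947, chromosome 10), the catalytic beta subunit of the ATP synthase, read 12.78, 12.79, 12.85, 12.81 and 12.98 on rWT controls and 12.70 to 12.96 (median 12.77) after TCDD. Its effects were -0.06 ± 0.05 (adjusted p = 0.347) in rWT, 0.04 ± 0.04 (adjusted p = 0.567) in DEL and 0.04 ± 0.04 (adjusted p = 0.99) in INS, and in DEL its sign turned after median centring (-0.22, adjusted p = 0.00253). The alpha subunit Atp5a1 was at -0.15, -0.11 and 0.06. The lowest complex V effects were those of Atp5k, subunit e, in rWT (-0.25 ± 0.20 (adjusted p = 0.332)) and Atp5g2, a gene of the proton-carrying c ring, in DEL (-0.38 ± 0.19 (adjusted p = 0.11)). The highest were Atp5j in rWT (0.03), Atp5c1 in DEL (0.05) and Atp5g2 in INS (0.15). No complex V member was called for the averaged effect in any line.

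No member's dependence on dose passed the test. At 125, 250, 500 and 1000 µg/kg, 6, 12, 9 and 11 members were lower in rWT, beside 10%, 14.3%, 10.3% and 12.8% of all features, and 2, 3, 8 and 9 in DEL, beside 7.76%, 11%, 12.9% and 12.7%. In rWT without the 4 arrays 3, 8, 6 and 5 members were lower, beside 11.8%, 15.5%, 11.9% and 14.8%. With all arrays no member was called higher at any dose, while 13.8%, 16.6%, 13.1% and 15.7% of all features were in rWT and 9.42%, 11.5%, 14.6% and 14.3% in DEL. Without the 4 arrays Cox6a1 was called higher at 125 and 250 µg/kg in rWT and at 125 and 1000 µg/kg in DEL, beside 12.7%, 15.3%, 13.2% and 14.7% of all features at the 4 doses in rWT and 10.6% and 15.2% at those 2 doses in DEL. In INS 0 members were called by limma at any dose, beside 0.0805%, 0.142%, 0.232% and 1.02% of all features (3, 0, 0 and 0 members at an unadjusted p under 0.05). These contrasts share the corn oil arrays of their line. Sdha differed from controls by -0.77, -0.59, -0.89 and -0.95 in rWT at the rising doses, and by -0.48, -0.77, -0.66 and -0.46 in DEL. Ndufa9 differed by -0.45, -0.75, -0.71 and -0.68 in rWT and by -0.76, -0.45, -0.62 and -0.47 in DEL. The slope of the TCDD groups per doubling of dose was called by limma for 0 members in each line, with 2, 8 and 1 at an unadjusted p under 0.05 in rWT, DEL and INS. Over all features, slopes were called for 0.0284% in rWT, 0% in DEL and 0.0426% in INS. Slopes were negative for 41, 60 and 12 of the 77 members.

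The test of the difference between lines called 3 of the 77 members for INS minus rWT with all arrays, a smaller share than that of all features. INS minus rWT was 0.93 ± 0.28 (adjusted p = 0.0115) for Ndufs1, 0.76 ± 0.23 (adjusted p = 0.0148) for Sdha and 0.47 ± 0.17 (adjusted p = 0.0342) for Ndufa9, beside 8.45% of all features higher and 12.5% lower. Without the 4 rWT arrays these 3 calls were lost (0.21, 0.58 and 0.39; adjusted p = 0.63, 0.123 and 0.156), and Sdhc (0.47 ± 0.17 (adjusted p = 0.0405)), Cox8b and Cox8c were called instead, beside 10.3% of all features higher. INS minus DEL was called for 0 members, with 5 at an unadjusted p under 0.05, beside 5.43% of all features called higher and 8.68% lower. For Sdha that difference was 0.55 ± 0.23 (adjusted p = 0.102), with a 95% interval of 0.09 to 1.01, and for Ndufa9 0.40 ± 0.16 (adjusted p = 0.0903). DEL minus rWT was called for 0 members, with 2 at an unadjusted p under 0.05, beside 1.11% of all features called. After median centring 15 members were called higher for INS minus DEL and 16 for INS minus rWT (24.1% and 21.6% of all features), and after quantile normalization 2 and 6 (8.21% and 9.58%).

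Averaged over subunits, complex II again moved furthest in rWT and DEL. The mean of complex II was lower after TCDD by 0.52 in rWT and 0.41 in DEL, that of complex I by 0.18 and 0.21, of complex III by 0.17 and 0.16, of complex V by 0.08 and 0.09, and of complex IV by 0.24 (with the muscle isoforms) and 0.03. Omitting the 4 rWT arrays, the rWT means of complexes I to V were lower by 0.22, 0.36, 0.15, 0.08 and 0.05. In INS these means moved by -0.02, -0.06, -0.05, -0.01 and 0.03 from complex I to complex V. Corn oil means of complexes I to V were 10.04 ± 0.17, 11.37 ± 0.17, 11.37 ± 0.13, 8.67 ± 0.44 and 10.87 ± 0.14 in rWT (SD, n = 5). The corresponding means were 10.01 ± 0.12, 11.36 ± 0.06, 11.25 ± 0.11, 8.59 ± 0.12 and 10.84 ± 0.10 in DEL and 9.78 ± 0.25, 11.14 ± 0.06, 11.07 ± 0.23, 8.26 ± 0.19 and 10.63 ± 0.21 in INS (SD, n = 5 each). The lower INS values carry the lower level of the whole INS table. The mean of complex II had the smallest SD of the 5 complexes among DEL and INS controls. Its single subunits Sdha, Sdhb, Sdhc and Sdhd had SDs of 0.15, 0.17, 0.05 and 0.16 in DEL controls. In INS controls these SDs were 0.36, 0.21, 0.11 and 0.32. Within groups, over all arrays of a line, Sdha correlated with the mean of the rest of its complex at Pearson's r of 0.25, -0.54 and -0.35 in rWT, DEL and INS. The part of this in the SDs of the complex II mean was not tested.

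**Figure D4:**
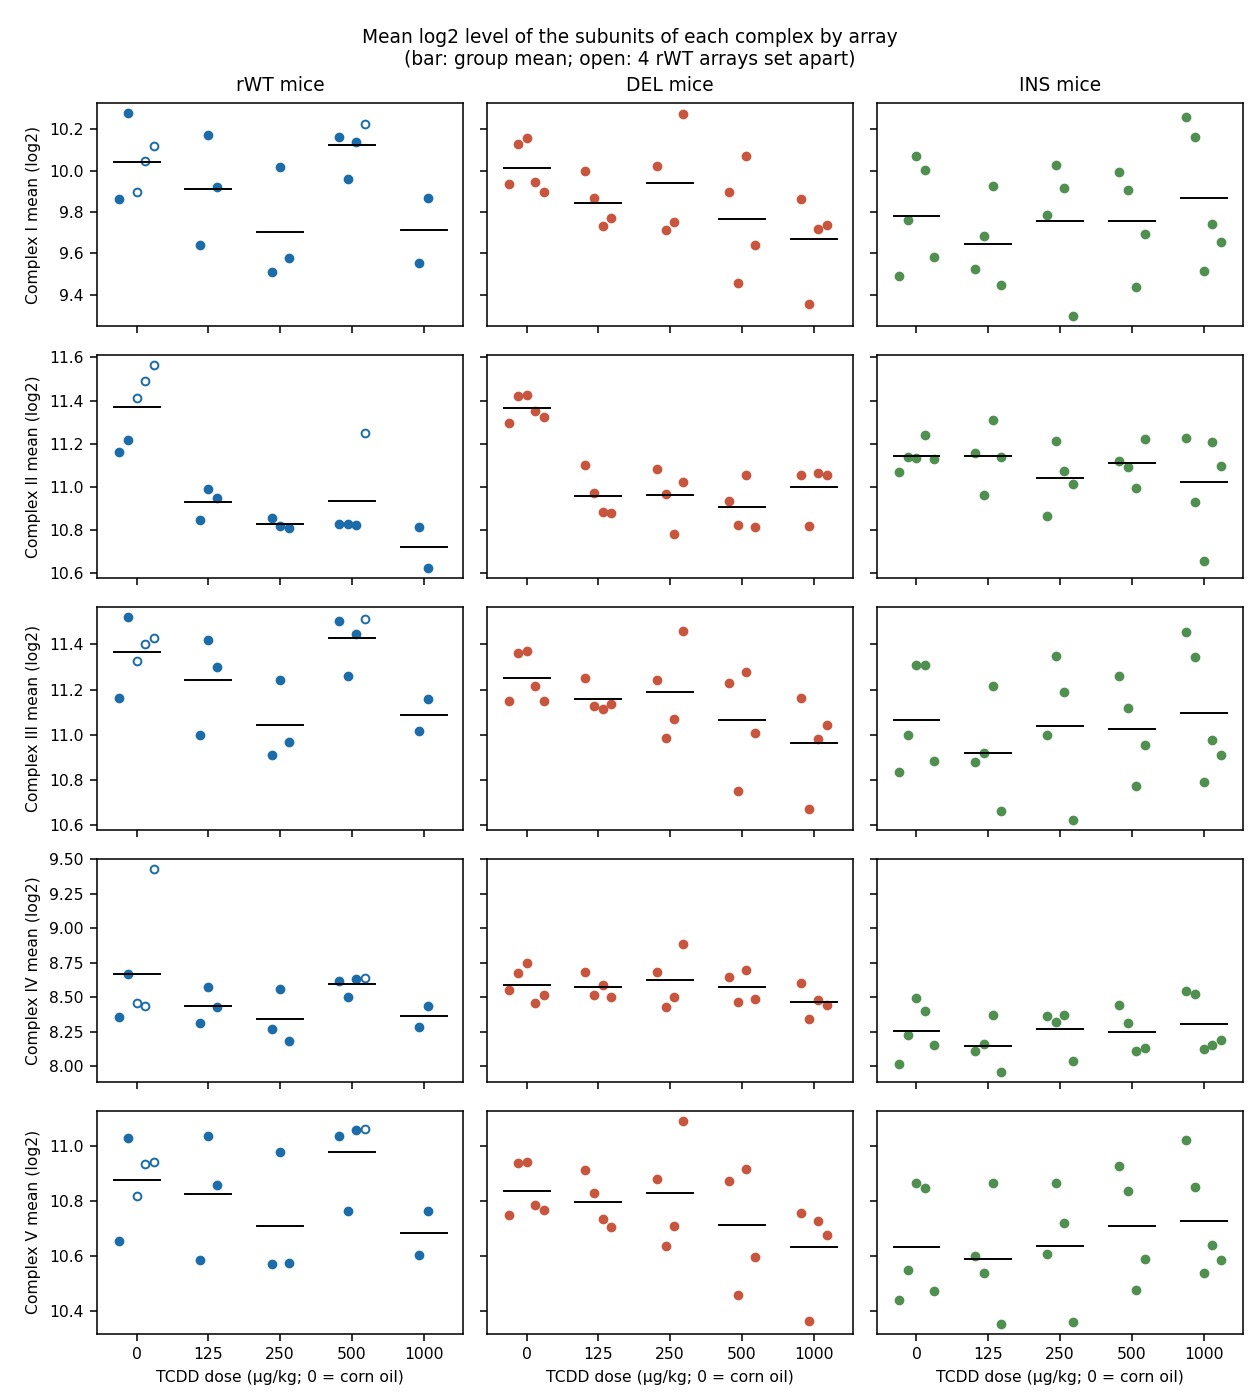
Mean log2 level of the subunits of complexes I to V (y axis, 1 row per complex) on each array by TCDD dose in µg/kg (x axis, 0 is corn oil) in rWT, DEL and INS mice. Bars are group means and open points the 4 rWT arrays set apart. Complex II separates treated from control arrays in DEL (16 of 16 below). In rWT 11 of 12 treated arrays lie below all controls and the groups overlap by 1 treated array, while the other complexes overlap in both lines.

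Within groups, complexes I, III and V varied together from mouse to mouse, and complex II followed them less in rWT and INS. After subtracting group means, complex I correlated with complex III at Pearson's r of 0.95, 0.97 and 0.99 and with complex V at 0.95, 0.98 and 0.95 in rWT, DEL and INS (n = 17, 21 and 22 arrays). Complex II correlated with complex I at 0.15, 0.83 and 0.44. These values describe genes measured on the same array and RNA preparation, so array quality is shared by them. Ndufa5 and Cox4i1 followed the common pattern, with r against the mean of all other members of 0.87, 0.97 and 0.98 for Ndufa5 and 0.77, 0.94 and 0.98 for Cox4i1. Sdha (-0.14, -0.59 and -0.71), Atp5a1 (-0.24, -0.29 and -0.64) and Atp5b (0.23, -0.26 and -0.08) did not. Members of complexes I and III were also among those that did not, such as Ndufv1 (-0.18, 0.06 and -0.08), Ndufs1 (0.06, 0.20 and -0.21) and Uqcrc1 (-0.45, 0.11 and 0.02). Sdha and Atp5a1 varied with each other, at 0.67, 0.42 and 0.90. Sdha also correlated with Ndufs1, at 0.75, -0.05 and 0.75. These genes were picked after their values were seen.

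**Figure D5:**
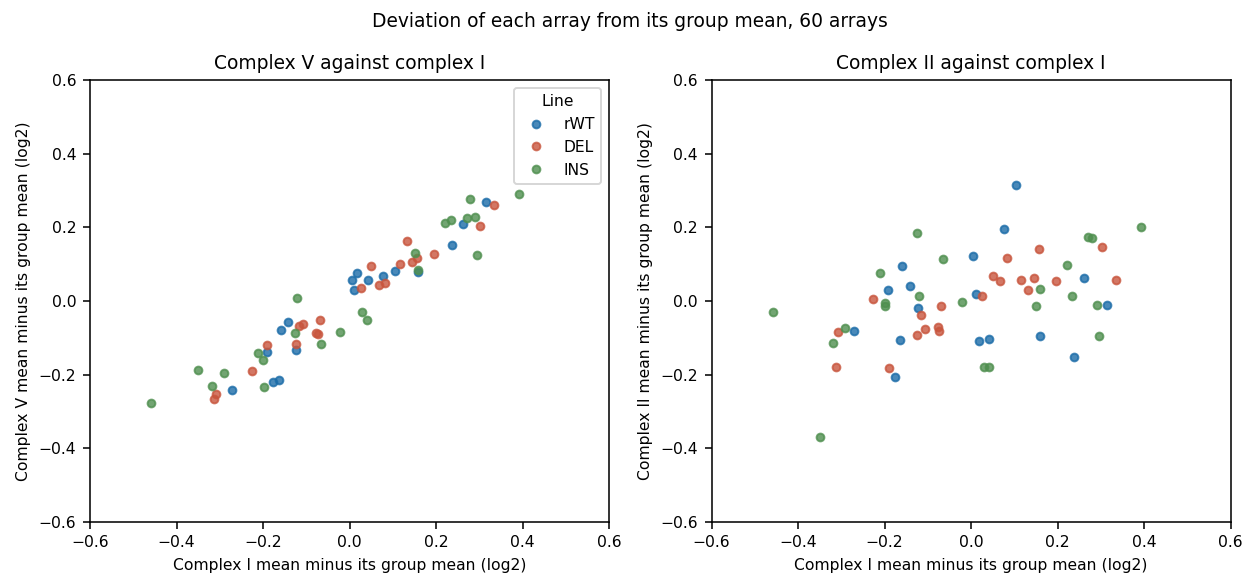
Deviation of each of the 60 arrays from its group mean for complex V (left, y axis) and complex II (right, y axis) against complex I (x axis, all log2), coloured by line. Complex V follows complex I closely in each line (r from 0.95 to 0.98), while complex II does so less tightly in rWT (0.15) and INS (0.44) than in DEL (0.83).

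Genes that serve the chain from outside, and with them the complex III subunit Cyc1, were examined as lists, chosen with earlier results of these data known. Their counts are set beside the shares of all features, which were 20.4% lower and 20.3% higher in rWT, 17.6% and 16.7% in DEL, and 19.1% and 16.9% in rWT without the 4 arrays. Of 42 measured assembly factors 15 fell and 3 rose in rWT, and 10 fell and 1 rose in DEL (medians -0.25 and -0.17, against -0.07 and -0.05 over all features). Timmdc1, which assembles the membrane arm of complex I, fell in rWT (-1.01 ± 0.15 (adjusted p = 1.66e-07)) and DEL (-0.61 ± 0.14 (adjusted p = 0.000459)), as did Sco2, which delivers copper to complex IV (-0.66 and -0.96). The complex I factor Ndufaf6 fell in rWT (-0.78 ± 0.22 (adjusted p = 0.00376)), and Cox19, of the copper pathway, rose in both (0.71 and 0.55). Without the 4 rWT arrays 8 of the 42 were lower and 0 higher in rWT, and Sco2 was at -1.07. The lower shares were 35.7% in rWT and 23.8% in DEL, and 19% in rWT without the 4 arrays, the last near that of all features.

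Another list held 14 genes of coenzyme Q synthesis and of cytochrome c. It also counted Cyc1, the cytochrome c1 subunit of complex III, which the choice of members by symbol left out. Of these 14, 6 fell and 1 rose in rWT and 5 fell and 1 rose in DEL. Coq8a, an ATPase of coenzyme Q synthesis, had the largest fall of the list (-2.01 ± 0.27 (adjusted p = 3.69e-08) in rWT, -1.53 ± 0.26 (adjusted p = 4.69e-06) in DEL). Cycs, cytochrome c itself, fell by 0.90 and 0.68 on the log2 scale, Coq10a was at -0.89 and -0.62, and Coq2, the prenyl transferase of that pathway, rose (0.91 and 0.89). On omission of the 4 arrays 2 of the 14 were lower and 2 higher in rWT. The lower shares were 42.9% in rWT and 35.7% in DEL, and 14.3% in rWT without the 4 arrays, the last below that of all features.

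Neighbours of complex II in the tricarboxylic acid cycle fell in 7 of 11 cases in rWT and 2 of 11 in DEL, shares of 63.6% and 18.2%, of which that of DEL was near that of all features. Sucla2, a subunit of the enzyme that makes succinate, fell in rWT (-1.26 ± 0.19 (adjusted p = 2.13e-07)) and DEL (-0.75 ± 0.18 (adjusted p = 0.000604)), and so did Fh1, the fumarase that takes up the product of complex II (-0.90 and -0.83). Suclg1 (-0.62) and Idh3a (-0.62) fell in rWT and were not called in DEL, and the difference DEL minus rWT was called for 0 of the 11. Without the 4 arrays Sucla2 was at -0.74 and Fh1 at -0.55 in rWT, both still called. Idh3a, the catalytic subunit of isocitrate dehydrogenase, turned to 0.48 (adjusted p = 0.141) without the 4 arrays. Without them 2 of 11 (18.2%, near all features) were lower and 1 higher in rWT, and the list median moved from -0.40 to 0.01.

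Of 20 genes of mitochondrial biogenesis and mtDNA expression, 11 fell and 2 rose in rWT and 7 fell and 1 rose in DEL. The coactivators Ppargc1a (-1.34 ± 0.28 (adjusted p = 0.000136) and -1.43 ± 0.27 (adjusted p = 2.92e-05)) and Ppargc1b (-1.20 and -0.97), which drive respiratory chain genes, fell in both lines, as did Polg2, the accessory subunit of the mtDNA polymerase (-1.14 and -0.79). Their relative Pprc1 rose (0.91 and 0.45). With the 4 arrays left out 3 of the 20 were lower and 1 higher in rWT. The lower shares were 55% in rWT and 35% in DEL, and 15% in rWT without the 4 arrays, the last below that of all features.

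Other enzymes that feed electrons to coenzyme Q fell in 5 of 8 cases in rWT and 3 of 8 in DEL. They included proline dehydrogenase Prodh (-1.53 and -1.26), mitochondrial glycerol-3-phosphate dehydrogenase Gpd2 (-0.96 and -1.34) and Etfdh, which takes electrons from fatty acid oxidation (-0.78 and -0.69). Etfa, its partner in that route, fell in rWT (-0.72). Without the 4 arrays 2 of 8 were lower in rWT. The lower shares were 62.5% in rWT and 37.5% in DEL, and 25% in rWT without the 4 arrays.

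Carriers and uncoupling proteins of the inner membrane, listed with the outer membrane porins Vdac1, Vdac2 and Vdac3, were mixed, with 1 of 8 higher and 2 lower in rWT and 2 higher and 1 lower in DEL. The aspartate-glutamate carrier Slc25a13 fell in both (-1.55 and -1.02), the ADP/ATP carrier Slc25a4 rose in DEL (1.59 ± 0.40 (adjusted p = 0.00141); 0.80 ± 0.42 (adjusted p = 0.122) in rWT), and the phosphate carrier Slc25a3 rose slightly (0.23 and 0.16), though in DEL its sign turned after median centring (-0.095). Ucp3, an uncoupling protein of muscle, was at -0.80 in rWT, and at 0.083 without rWT corn oil replicate 5. Without the 4 arrays 4 of 8 were higher in rWT (Slc25a3, Slc25a4, Vdac2 at 0.65 and Vdac3 at 0.49) and 1 was lower.

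Of 76 mitochondrial ribosomal proteins, which translate the mitochondrially encoded subunits, 10 rose and 13 fell in rWT and 3 rose and 10 fell in DEL. The lower shares, 17.1% and 13.2%, and the higher shares, 13.2% and 3.95%, were below those of all features. Mrps31 (-0.64 and -0.94) fell and Mrpl54 (0.83 and 0.60) rose in both lines, while in rWT Mrps35 fell (-0.68) and Mrpl20 rose (0.70). Without the 4 arrays 3 were higher and 7 lower in rWT. Of the rWT calls named in these lists, those of Ndufaf6, Cox19, Cycs, Suclg1, Idh3a, Etfdh, Etfa, Ucp3, Mrps35 and Mrpl20 did not pass without the 4 arrays, while Slc25a4 did (2.36 ± 0.30 (adjusted p = 2.48e-08)). In INS 0 genes of these 7 lists were called.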

How the data were processed

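Liver RNA of 60 mice in 15 groups was measured on expression arrays, 1 mouse per array. The deposited values are log2 expression levels, 1 feature per Entrez gene, made by the authors with RMA (affy 1.44.0 in R 3.1.2), per the submitters' processing notes. Of the build, the probe-set definition and the correction for background, the sources used here say nothing. All 21115 features were used as deposited, with no scaling or filter, of which 710 carried no symbol. Groups were read from the labels. Nothing in the files gives an array date or batch, and the number of arrays limits the precision.

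With limma 3.58.1 in R 4.3.3 a linear model with 1 mean per group was fitted over all 60 arrays with lmFit and eBayes and tested two-sided, leaving 45 residual degrees of freedom. Contrasts were TCDD against corn oil at each dose and as the mean of the 4 doses, the slope per doubling of dose, and the difference between lines of the averaged effect. Benjamini-Hochberg adjustment ran over all features within each contrast, with a threshold of 0.05. Complex means are means of the members' log2 levels on an array, and correlations were taken after subtracting group means; both are descriptions. The fit was tested on simulated data with known changes.

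The members, gene lists and cell markers were chosen with earlier results of these data known. Members are named by rule: the 8 called members with the largest averaged effect in each line, the highest and lowest of each complex and line, called differences between lines, core subunits and tissue isoforms, and up to 4 called genes of each list. The other called members (Ndufa2, Ndufa10, Ndufs3) and Ndufa1, Ndufs5, Ndufs7, Ndufs8, Ndufv2, Uqcrc2, Uqcrh, Atp5a1, Vdac2, Vdac3 and the marker Clec4f were added after their values were seen. Whether replicate numbers pair mice was checked. Deviations of same-numbered arrays from their group means correlated at medians of 0.11, 0.02 and 0.11 in rWT, DEL and INS. Single pairs ran from -0.16 to 0.49, from -0.59 to 0.47 and from -0.45 to 0.41. For other pairs of arrays the medians were -0.02, -0.01 and -0.04. Same-numbered arrays were thus slightly more alike at the median, but the medians were low and no block was used in the main fit. Alternatives were median centring, quantile normalization, a filter on low levels, fits within a line, a replicate block, a trended robust spread, the omission of 4 rWT arrays and of each array in turn, and Ndufa4 with Ndufa4l2 counted in complex I.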

Additional observations from a re-analysis of the deposited data

Results flagged for a closer look

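The complex means and some of the named members were checked in each group that held 4 or 5 arrays. Of these 252 checks, 21 had an array that stood apart from the rest by Dixon's criterion, where chance gives about 5% of checks. The widest gaps were those of the muscle isoforms on rWT corn oil replicate 5, where Cox6a2 read 10.36 (others 4.55 to 4.93), Cox7a1 11.74 (7.34 to 8.47) and Cox8b 12.63 (4.21 to 4.91). Among rWT mice given 500 µg/kg, the complex II mean was 11.25 on replicate 4 (others 10.82 to 10.83), an array that went against its sex label, and on replicate 2 the complex IV mean was 8.50 (8.62 to 8.64) and the complex V mean 10.76 (11.03 to 11.06). Sdhc read 11.52 on rWT corn oil replicate 1 (10.96 to 11.11).

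In DEL mice given 1000 µg/kg, replicate 2 was low for the complex II mean at 10.82 (others 11.05 to 11.07), for Sdhc at 10.42 (11.02 to 11.12) and for Ndufb3 at 5.86 (7.06 to 7.27), and replicate 1 was low for Sdha at 11.22 (11.57 to 11.62). On DEL corn oil arrays Sdhc read 11.37 on replicate 3 (11.25 to 11.28) and Cox6a1 10.75 on replicate 1 (11.03 to 11.11). The complex III mean was 11.25 on DEL 125 replicate 1 (11.12 to 11.14), Ndufs1 was 8.91 on DEL 250 replicate 3 (9.08 to 9.09) and Ndufa9 was 10.50 on DEL 500 replicate 3 (10.06 to 10.07).

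In INS, the complex IV mean was 8.04 on 250 replicate 4 (others 8.32 to 8.37), Atp5b was 12.96 on 250 replicate 3 (12.76 to 12.78), Ndufb10 was 8.52 on 500 replicate 1 (7.95 to 8.04), Cox8b was 4.63 on 1000 replicate 2 (3.65 to 3.94) and Cox6a1 was 10.43 on corn oil replicate 1 (10.76 to 10.85).

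The averaged effect of TCDD differed between INS and rWT, by the limma test of the difference itself, at Ndufs1 (0.93), Sdha (0.76) and Ndufa9 (0.47). None of these 3 differences passed without the 4 rWT arrays that went against their sex label, and the part of those arrays in them was not tested further.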

How the results depend on the processing

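The direction of the averaged effect of Sdha, Sdhc, Ndufa5 and Ndufa9 in rWT and DEL, and its call, held under every alternative run. Median centring gave 0 members higher and 38 lower in rWT (median -0.32), beside 13.2% and 51.9% of all features. In DEL it gave 0 higher and 49 lower (median -0.38), beside 10.4% and 55.2%. Between lines it gave 15 calls for INS minus DEL and 16 for INS minus rWT, all higher, beside 24.1% and 21.6% of all features higher. By dose from 125 to 1000 µg/kg it gave 19, 39, 17 and 31 calls in rWT and 21, 20, 40 and 56 in DEL. Shares of all features were not counted by dose under centring or quantile normalization, nor for the filter, the fits within a line, the block and single omissions. Those counts are not read as a result about the members. Centred differences of complex means, an alternative chosen after seeing the data, were -0.40, -0.74, -0.39 and -0.30 for complexes I, II, III and V in rWT and -0.46, -0.66, -0.41, -0.29 and -0.35 for complexes I to V in DEL. Centring turned Atp5b (-0.22) and Slc25a3 (-0.095) in DEL. Quantile normalization gave 2 members higher in DEL, beside 15.4% of all features. It called 2 for INS minus DEL and 6 for INS minus rWT, beside 8.21% and 9.58% of all features higher. In DEL it gave 4 and 15 calls at 125 and 1000 µg/kg. Corn oil means were then 9.84, 11.22, 11.11, 8.41 and 10.69 for complexes I to V in DEL and 11.24 and 8.47 for complexes II and IV in INS. Testing the 10558 features at or above the median level, which kept 68 members, gave 0 higher in rWT and 5 calls for INS minus rWT.

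Fits within a line gave 0 higher in rWT, 1, 3 and 4 calls at 125, 500 and 1000 µg/kg in rWT, and 6, 5 and 14 at 125, 250 and 1000 µg/kg in DEL. Without the 4 rWT arrays 8 members were lower in rWT, 5 at 1000 µg/kg, the corn oil mean of complex II was 11.19 and Idh3a turned to 0.48. The replicate number was also fitted as a block, although same-numbered arrays correlated only weakly at the median. With it 0 members were higher in rWT, and 3 were called at 125 µg/kg in rWT and 1 in DEL. Sdhb, Ndufv1 and Ndufs3 in DEL and Cox6a2, Cox6b2 and Ndufa10 in rWT passed no longer. Where a count moved, the cause was not tested.

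Leaving out each array in turn gave 14 to 17 lower and 0 to 1 higher members in rWT (median -0.14 to -0.05) and 5 to 15 lower and 0 to 1 higher in DEL (median -0.16 to -0.10), with 5 lower without DEL corn oil replicate 3, 7 without replicate 2 and 0 higher without replicate 1. The INS median ran from -0.07 to 0.05. By dose the counts were 2 to 7, 8 to 16, 6 to 12 and 3 to 11 in rWT and 1 to 3, 1 to 3, 5 to 12 and 1 to 9 in DEL, the last with 1 call without DEL TCDD 1000 replicate 2. INS minus rWT was called for 2 to 9 members, 9 without rWT corn oil replicate 1. In rWT Cox6a2 ran from -1.44 to 0.012 and Ucp3 from -1.05 to 0.083, both highest without rWT corn oil replicate 5.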
